A study of Mus musculus with 3 samples.

Results

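Transcripts of the proteasome were followed in islet endocrine cells of NOD/ShiLtJ mice that carry a beta-cell knockout of IRE1α, an endoplasmic reticulum stress sensor, and of a floxed control mouse. Members were all genes whose symbol starts with Psma, Psmb, Psmc, Psmd, Psme, Psmf or Psmg in the authors' tables of beta, alpha and delta cells. This gave 41 genes of the 8237 listed in any of the tables: 40 of 8193 in beta cells, 3 of 186 in alpha cells and 0 of 231 in delta cells. Of 47 mouse proteasome genes looked for, the beta-cell table lacks Psmb2, Psmb4, Psmb5, Psme4, Psmg1, Psmg2 and Psmg3, which were not analysed here in those cells. The tables hold only genes that the authors listed as different, up to an adjusted p of 0.00998 in beta cells, so the counts below describe listed genes and not the whole particle.

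The control group is 1 mouse of genotype IRE1αfl/fl, and the knockout group is 2 mice of genotype IRE1αβ-/-. All 3 mice were 5 weeks old, NOD/ShiLtJ, a strain that develops autoimmune diabetes, and the labels give tamoxifen at 10 mg per ml, injected into the abdomen, for each of them. The Cre driver of the knockout, and whether the control carried one, were not given in the labels or notes used here. Hand-picked islets were kept in culture overnight before they were dissociated, and libraries were made with the 10X Genomics droplet system. Each unique molecular identifier (UMI) stands for 1 captured transcript, and every value below is a mean number of UMIs per cell, not scaled for depth.

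The proteasome is the barrel-shaped protease that degrades ubiquitin-tagged proteins, including misfolded secretory proteins that are drawn back out of the endoplasmic reticulum. Its core particle is a stack of outer rings of alpha subunits (Psma genes) around inner rings of beta subunits (Psmb genes), some of which cut peptides. The regulatory particle that caps it has a base with a ring of ATPases (Psmc genes) that unfold the substrate, and a lid of further subunits (Psmd genes) that removes ubiquitin. Under interferon, inducible beta subunits replace the standard catalytic ones, and the Psme activators can take the place of the regulatory cap. Beta cells make large amounts of proinsulin and are known to rely on this route to clear the part that misfolds.

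The beta-cell values rest on 829 control cells and on 815 knockout cells in which both knockout mice are pooled. With 1 control mouse and 1 pooled knockout value, no difference in beta cells has a check against the spread between mice, and mouse and genotype cannot be told apart there. Listed genes summed to 31552 UMIs in a control cell and 24796 per knockout cell, and Ins1, Ins2 and Iapp made up 69.9% and 53.9% of those sums. Of the marker lists, 6 of 8 beta-cell genes were listed in beta cells and summed to 22059 UMIs in a control cell and 13364 per knockout cell. Sums of other cell types went up beside them in knockout beta cells, from 48.8 to 113 UMIs for 3 of 6 alpha-cell markers, from 39.6 to 64.6 for 3 of 5 delta-cell markers, and from 21.7 to 107 for 2 of 2 PP-cell markers. For 3 of 4 red-cell markers the sum went from 0.0639 to 22.6, and for 3 of 4 duct markers from 5.80 to 10.5. Among genes at 0 in control beta cells were Reg3b, the 1 of 5 acinar markers listed, and Col1a1, 1 of 3 mesenchymal markers. The part of these other cell types in the proteasome values was not tested.

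Most listed proteasome genes had slightly more UMIs per knockout beta cell, and the shift was smaller than that of listed genes in general. All 40 members together had 65.4 UMIs in a control cell and 76.4 in a knockout cell, with a ratio of knockout over control of 1.17 [1.15 to 1.18]. Brackets give the exact 95% interval of a ratio here and below, which covers counting error only. Of the 40 members, 36 were higher and 4 lower, beside 95.0% of all listed genes that were higher. Psmd5, Psma1 and Psmc2 were the 3 members with a ratio of at least 1.5, the size rule used in place of a test. That is 7.5% of members, where the background of all listed genes was 45.7%. That background was 71.6% among genes under 0.3 UMIs per cell, where 1 member lies, and 28.7%, 17.7% and 15.2% from 0.3 to 1, 1 to 3 and 3 to 10 UMIs, where the other 39 lie. None was at least 1.5-fold lower, beside 2.47% of all listed genes. The median log2 ratio of the members was 0.26 and that of all listed genes 0.54. At like abundance these medians were closer: 0.30 and 0.43 from 0.3 to 1 UMIs, and 0.26 and 0.30 from 1 to 3. From 3 to 10 UMIs the members were slightly above, at 0.24 and 0.19.

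The direction depended on how the columns were scaled, while the order of the members did not, since a scaling moves all of them by the same factor. After division by the listed UMI total, all 40 members were higher in the knockout, as were 97.2% of listed genes, and 24 were at least 1.5-fold higher, beside 83.2% of listed genes. With Ins1, Ins2 and Iapp left out of that total, 19 of 40 were higher, against 80.5% of listed genes. Relative to the median of all listed genes, 5 of 40 lay above it. As a share of the listed total, the 40 members took 0.207% in control beta cells and 0.308% in knockout ones. The ratio of one member to another is not altered by such a factor.

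**Figure D1:**
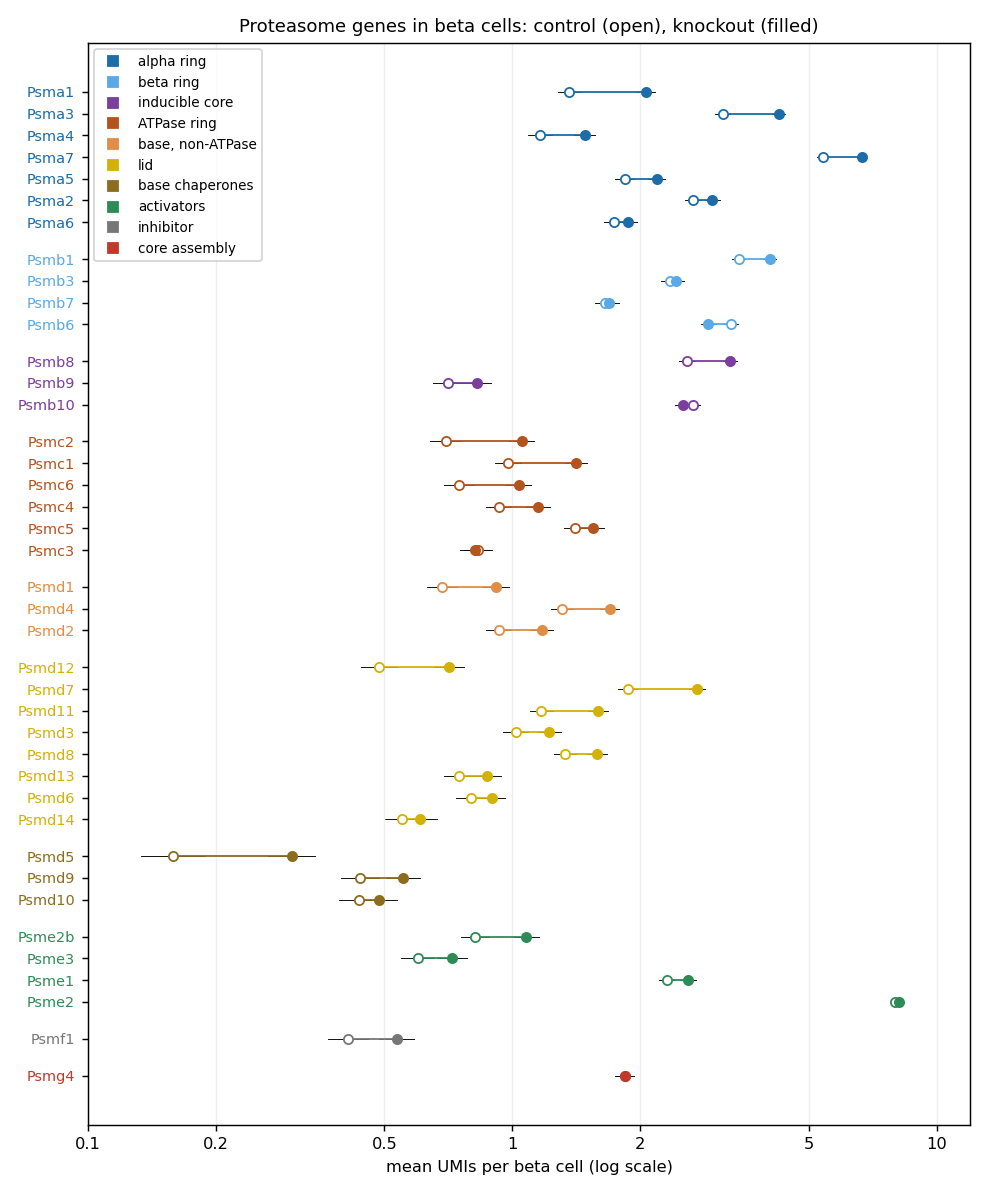
Mean UMIs per beta cell (horizontal, log scale) of the 40 listed proteasome genes, grouped and coloured by part of the particle, with open circles for the control mouse and filled circles for the pooled knockout mice; thin lines are exact 95% counting intervals. Filled circles lie to the right of the open ones for 36 genes, and to the left for Psmb6, Psmb10, Psmc3 and Psmg4. The circles of Psmg4 overlap, while the counting intervals of Psmb6 do not.

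By summed UMIs of genes grouped by name, regulatory genes shifted more than core genes, and core genes more than activators, whose sum is mostly Psme2. The 20 regulatory genes (Psmc and Psmd) summed to 17.5 UMIs in a control cell and 22.4 in a knockout cell, with a ratio of 1.28 [1.25 to 1.30]. The 14 core genes (Psma and Psmb) summed to 33.9 and 39.1, with a ratio of 1.15 [1.14 to 1.17]. The 4 activator genes (Psme) summed to 11.7 and 12.5, with a ratio of 1.07 [1.04 to 1.10]. These 3 intervals do not overlap, but they cover counting error only, and the difference between the parts has no check across mice. Median log2 ratios stood in the same order, at 0.33 for regulatory, 0.23 for core and 0.22 for activator genes, with the last pair nearly equal. By name, the regulatory group includes the base chaperones Psmd5, Psmd9 and Psmd10 and leaves out the cap subunits Sem1 and Adrm1. Sem1 had 8.99 UMIs in a control cell and 8.43 in a knockout cell, and Adrm1 had 0.745 and 1.11. Sem1 was lower, and its 8.99 UMIs in a control cell are large beside the 17.5 of all 20 named genes. A cap sum that includes it would therefore have a ratio below 1.28. That sum was not computed, so the order is given for the named groups only and was not shown for the whole cap.

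Promoter sequence is given with the motifs of factors known to act on proteasome genes. Psmb6, Psmd9, Psmc6 and Psmd12 are the 4 members found with TGACNNNGC, and Psma1 is 1 example of the 13 found with CCAAT. Of the 41 members, 35 had a window in RefSeq's table of promoters (build GRCm38.p6, 250 bases before to 50 after a start site), in 38 windows. Capitals mark every match of the named motif, on either strand, and distances count from the annotated start site. The first 4 stretches hold the antioxidant response element core TGACNNNGC, the kind of element bound by NFE2L1, which is known to drive proteasome genes when the proteasome is short. They are chr11:70525267-70525356 (plus strand) for Psmb6, chr5:123228100-123228189 (plus) for Psmd9, chr14:45329574-45329663 (plus) for Psmc6 and chr11:107479278-107479367 (plus) for Psmd12. The match begins at position -9 from the start site in Psmb6, -31 in Psmd9, -227 in Psmc6 and -247 in Psmd12. The last stretch shows a pair of CCAAT boxes (the motif of NF-Y) in Psma1, the highest core member, at chr7:114276196-114276285 (minus).
Psmb6: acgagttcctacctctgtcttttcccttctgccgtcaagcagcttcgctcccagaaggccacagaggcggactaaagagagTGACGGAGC
Psmd9: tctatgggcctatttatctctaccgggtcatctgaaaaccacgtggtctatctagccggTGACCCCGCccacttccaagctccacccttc
Psmc6: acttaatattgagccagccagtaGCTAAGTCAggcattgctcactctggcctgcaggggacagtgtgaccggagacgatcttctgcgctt
Psmd12: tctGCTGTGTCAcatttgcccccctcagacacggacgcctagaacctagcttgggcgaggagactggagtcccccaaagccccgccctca
Psma1: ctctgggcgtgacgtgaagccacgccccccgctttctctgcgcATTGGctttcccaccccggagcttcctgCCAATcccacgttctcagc

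For 3 of the 4 motifs searched, on both strands, the share of member windows was below that of all windows. TGACNNNGC was in 4 of 38 member windows (10.5%) and in 12.4% of all 32851 promoter windows. The 4 genes that hold it spanned most of the range of ratios, from Psmb6 at 0.884 through Psmd9 at 1.26 and Psmc6 at 1.38 to Psmd12 at 1.46. CCAAT was in 13 member windows (34.2%) and 37.4% of all windows, and TTCNNNGAA, the STAT site, in 2 (5.26%, Psmb8 and Psmd2) and 8.3%. The match in Psmb8 lies in bases that GENCODE M21 annotates as UTR. The interferon-stimulated response element was in 5 (13.2%) and 3.44%: Psmb3, Psmd4, Psmd9, Psme1 and Psmg4. Ratios of those 5 genes lay between 0.997 and 1.29. Psmb3 and Psmd4 hold both CCAAT and the interferon element, and Psmd9 both TGACNNNGC and the interferon element, at places that do not overlap. A match is a description of the letters only.

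All 7 genes of the outer alpha ring of the core, which gates the entry of substrate, were listed in beta cells, and all 7 were higher per knockout cell, beside 95.0% of all listed genes. Psma1 (chromosome 7, 114264606 to 114276118, mm10) averaged 1.36 UMIs in control and 2.07 in knockout cells. Its ratio of 1.52 [1.41 to 1.64] was the second highest of all members. Psma3 went from 3.13 to 4.24, with a ratio of 1.35 [1.29 to 1.43], and Psma4 from 1.16 to 1.48, with a ratio of 1.27 [1.17 to 1.39]. For Psma7 the values were 5.39 and 6.66, with a ratio of 1.24 [1.19 to 1.29], and for Psma5 1.84 and 2.19, at 1.19 [1.11 to 1.28]. Psma2 (2.66 and 2.96, ratio 1.11 [1.05 to 1.18]) and Psma6 (1.74 and 1.87, ratio 1.08 [1.00 to 1.16]) were closest to no change. The counting intervals of Psma1 and Psma6 do not overlap. These are the highest and lowest of the 7, and the intervals leave out spread between cells and mice. Whether the ring's genes shifted by 1 common factor was not tested. The ring as a whole had 17.3 UMIs in a control cell and 21.5 in a knockout cell, with a ratio of 1.24 [1.22 to 1.27].

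The standard beta ring shifted less. Its 4 listed genes, Psmb1, Psmb3, Psmb6 and Psmb7, summed to 10.7 UMIs in a control cell and 11.1 in a knockout cell, with a ratio of 1.03 [1.00 to 1.06], below the interval of the alpha ring. Psmb6 (chromosome 11, 70525367 to 70527858), which encodes the subunit with caspase-like activity, went from 3.28 to 2.90. At a ratio of 0.884 [0.836 to 0.934] it was the lowest of all members and the 1 member whose interval lies below 1. Psmb7, the subunit with trypsin-like activity, was at 1.65 and 1.69, with a ratio of 1.02 [0.950 to 1.10]. The structural subunit gene Psmb3 was at 2.35 and 2.43, with a ratio of 1.03 [0.971 to 1.10]. Psmb1, also structural, was at 3.41 and 4.04, with a ratio of 1.18 [1.12 to 1.24]. Psmb5, the subunit with chymotrypsin-like activity, was not analysed here.

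The 3 inducible beta subunits, which replace the catalytic ones in the immunoproteasome, were split. Psmb8 (chromosome 17, 34197721 to 34201454) went from 2.58 to 3.25 UMIs per cell, with a ratio of 1.26 [1.19 to 1.34]. Its neighbour in the MHC region, Psmb9 (34181987 to 34187764), went from 0.706 to 0.825, with a ratio of 1.17 [1.04 to 1.31]. Psmb10 (chromosome 8, 105935735 to 105938444) was at 2.66 and 2.52, with a ratio of 0.947 [0.892 to 1.01]. Against the standard subunits they replace, Psmb9 had 0.215 UMIs per UMI of Psmb6 in control and 0.285 in knockout cells, while Psmb10 had 1.61 and 1.49 per UMI of Psmb7. The inducible genes therefore gained on their counterpart in 1 of these 2 pairs. Of 10 immune-cell markers, 4 were listed in beta cells (Cd68, Cd74, Cd79a and Lyz2) and summed to 0.641 UMIs per control and 0.564 per knockout cell, none of them at 0. Cd68 was lower (0.409 and 0.0577), while 3 of the 4 were higher, Cd74 at a ratio of 1.96, Cd79a at 2.76 and Lyz2 at 10.2 [1.45 to 441]. Their part in the values of the inducible subunits was not tested.

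**Figure D2:**
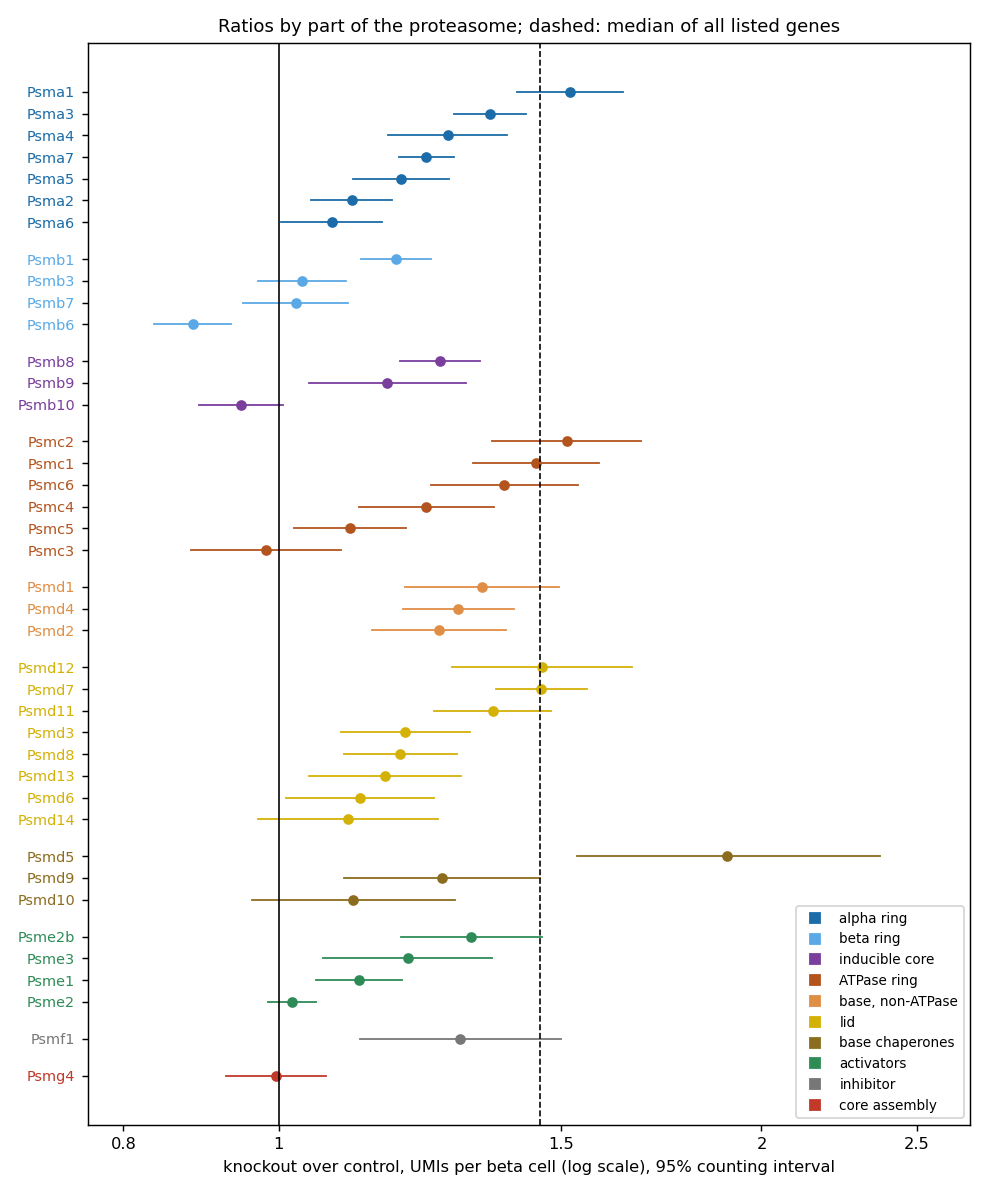
Ratio of knockout over control in UMIs per beta cell (horizontal, log scale) for the 40 genes, with exact 95% counting intervals; the solid line marks 1 and the dashed line 1.45, the median of all listed genes. The beta ring runs from 0.884 to 1.18, and only Psmd5, Psma1, Psmc2, Psmd12 and Psmd7 lie to the right of the dashed line.

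All 20 Psmc and Psmd genes looked for were listed, and 19 of 20 were higher per knockout cell, the same share as the 95.0% of all listed genes. The cap subunits Sem1 and Adrm1, which lack these names, are not among the 20. In the ATPase ring of the base, 5 of 6 were higher, with a sum of 5.59 UMIs per control and 7.02 in a knockout cell, with a ratio of 1.26 [1.21 to 1.31]. Psmc2 (chromosome 5, 21785283 to 21803787) went from 0.697 to 1.05, with a ratio of 1.51 [1.36 to 1.68]. Psmc1 went from 0.978 to 1.41, with a ratio of 1.45 [1.32 to 1.58], and Psmc6 from 0.749 to 1.04, at 1.38 [1.24 to 1.54]. Psmc4 (1.24 [1.12 to 1.36]) and Psmc5 (1.11 [1.02 to 1.20]) had lower ratios than these 3. The exception was Psmc3 (chromosome 2, 91054009 to 91066369), with 0.831 and 0.816 UMIs per cell, with a ratio of 0.982 [0.881 to 1.09]. The 6 ATPases form 1 ring in the protein. The intervals of Psmc2 and Psmc3, the highest and lowest of the 6, do not overlap, but they cover counting error only. Whether the 6 mRNAs share 1 ratio was not tested.

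The non-ATPase genes of the base had overlapping intervals. Psmd1 and Psmd2, the large scaffold subunits, averaged 0.684 and 0.932 UMIs in control cells and 0.915 and 1.17 in knockout cells, with ratios of 1.34 [1.20 to 1.5] and 1.26 [1.14 to 1.38]. Psmd4, a ubiquitin receptor, went from 1.31 to 1.70, with a ratio of 1.29 [1.19 to 1.40].

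Of the lid genes with Psmd names, 8 of 8 were higher, beside 95.0% of all listed genes. Their sum went from 7.98 UMIs per control cell to 10.2 in a knockout cell, with a ratio of 1.28 [1.24 to 1.32]. Sem1, a lid subunit without that name, is not in this sum. It was lower, at 8.99 and 8.43 UMIs per cell, with a ratio of 0.937 [0.907 to 0.969]. In control cells Sem1 had more UMIs than the 8 Psmd genes together, so the ratio of 1.28 does not describe the whole lid. The scaffold subunit gene Psmd12 (0.486 and 0.709) and Psmd7 (1.87 and 2.72) led, at 1.46 [1.28 to 1.66] and 1.46 [1.37 to 1.56]. Psmd11, another lid subunit, went from 1.17 to 1.59, with a ratio of 1.36 [1.25 to 1.48]. Psmd14, the deubiquitinase of the lid and the partner of Psmd7 in the protein, was lowest of the 8 Psmd genes. It had 0.550 and 0.607 UMIs per cell, with a ratio of 1.10 [0.970 to 1.26]. The remaining 4, Psmd3, Psmd8, Psmd13 and Psmd6, were between 1.12 and 1.20.

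Psmd5, Psmd9 and Psmd10 carry the name of the cap but encode chaperones that assemble its base and leave the finished particle. Psmd5 (chromosome 2, 34849734 to 34874968) went from 0.159 to 0.303 UMIs per cell, which is 132 UMIs in all control and 247 in all knockout cells. Its ratio of 1.90 [1.53 to 2.37] was the highest of all members. Psmd9 was at 0.438 and 0.553, with a ratio of 1.26 [1.10 to 1.46], and Psmd10 at 0.435 and 0.485, with a ratio of 1.11 [0.963 to 1.29]. Psmd5 was also the rarest member, and rare genes of the table had higher ratios in general.

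The 4 activators ranged in ratio from 1.02 to 1.32. Psme1 and Psme2, neighbours on chromosome 14 (55578123 to 55581529 and 55587441 to 55591113), encode the interferon-inducible activator of the core. Psme2 was at 7.98 UMIs per control and 8.13 in a knockout cell, with a ratio of 1.02 [0.985 to 1.05]. Psme1 was at 2.32 and 2.60, with a ratio of 1.12 [1.05 to 1.19]. Psme3, which encodes a nuclear activator, was at 0.600 and 0.721, with a ratio of 1.20 [1.07 to 1.36]. Psme2b, on chromosome 11, was at 0.819 and 1.08, with a ratio of 1.32 [1.19 to 1.46]. It is a copy of Psme2 whose reads the counting could have split, so the values of both are uncertain. Without it the median log2 ratio of the activators was 0.17.

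Psmf1 and Psmg4 were the only listed members of their kind. Psmf1, named as a proteasome inhibitor, went from 0.411 to 0.534 UMIs per cell, with a ratio of 1.30 [1.12 to 1.5]. Psmg4, an assembly chaperone of the core's alpha ring, was at 1.84 in both groups, with a ratio of 0.997 [0.927 to 1.07].

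Genes that work with the proteasome without carrying its names were also mostly higher per knockout cell. Of 29 partners, 24 were listed in beta cells, 22 of them higher (91.7%) and 2 lower, beside 95.0% of all listed genes that were higher. Their median log2 ratio was 0.35, and that of all listed genes 0.54. By the size rule 6 of 24 (25.0%) were at least 1.5-fold higher, beside 45.7% of all listed genes. Most partners lie above 0.3 UMIs per cell, where that background was 28.7% from 0.3 to 1 UMIs and 17.7% or less above 1. The 2 lower ones belong to the particle's own build: Sem1, the smallest lid subunit, was at 8.99 and 8.43 UMIs per cell, with a ratio of 0.937 [0.907 to 0.969]. Pomp, the chaperone that matures the core, was at 4.65 and 4.48, with a ratio of 0.963 [0.920 to 1.01]. Adrm1, a ubiquitin receptor of the base, went from 0.745 to 1.11, with a ratio of 1.49 [1.34 to 1.65], and the deubiquitinase gene Usp14 from 0.520 to 0.682, at 1.31 [1.16 to 1.49].

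The highest ratio among the partners was that of Zfand5, whose product binds the proteasome. Zfand5 went from 1.13 to 2.01 UMIs per cell, with a ratio of 1.79 [1.65 to 1.94]. Ubb, a polyubiquitin gene, went from 18.6 to 22.2, with a ratio of 1.19 [1.16 to 1.22]. Vcp, the ATPase that pulls ubiquitinated proteins out of membranes, went from 2.10 to 2.43, with a ratio of 1.16 [1.09 to 1.24]. Nfe2l1, the transcription factor of proteasome genes, went from 2.21 to 2.79, with a ratio of 1.26 [1.18 to 1.34]. Uchl5 was not analysed here.

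Companions of the inducible subunits in antigen processing and in the interferon response did not move as one. Of 11 genes, 9 were listed in beta cells, 6 higher and 3 lower, with 2 at least 1.5-fold higher and 3 at least 1.5-fold lower. Over all listed genes these shares were 95.0% higher, 45.7% at least 1.5-fold higher and 2.47% at least 1.5-fold lower. The lower ones were Isg15, an interferon-induced ubiquitin-like protein, with 1.79 and 0.634 UMIs and a ratio of 0.354 [0.320 to 0.391], the interferon regulator Irf7 (1.31 and 0.724, ratio 0.551 [0.498 to 0.610]), and B2m, the light chain of MHC class I (9.91 and 6.47, ratio 0.653 [0.630 to 0.676]). The 2 highest were the transcription factor gene Irf1 (0.668 and 1.58, ratio 2.36 [2.13 to 2.61]) and the peptide-trimming Erap1 (0.413 and 0.677, ratio 1.64 [1.43 to 1.88]). These 5 were named after their values were seen. Tap1, the peptide transporter gene next to Psmb9, was at 0.233 and 0.275 UMIs per cell, with a ratio of 1.18 [0.969 to 1.44], and Tap2 at 0.715 and 0.848, with a ratio of 1.19 [1.06 to 1.32]. Their intervals include the ratios of the neighbours Psmb9 (1.17) and Psmb8 (1.26).

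The members were also set beside listed genes of like abundance. Among listed genes of 0.3 to 1 UMIs per beta cell (mean of both groups), the median log2 ratio was 0.43 for all 2829 genes and 0.30 for 14 members. From 1 to 3 UMIs it was 0.30 for 1132 genes and 0.26 for 20 members, and from 3 to 10 UMIs it was 0.19 for 368 genes and 0.24 for 5 members. Below 0.3 UMIs, where the median of 3700 genes was 0.82, Psmd5 was the single member, at 0.93. Members were mostly abundant: 25 of 40 had at least 1 UMI per cell, while 3700 of the 8193 listed genes had fewer than 0.3. Among the 40 members, the log2 ratio and the abundance had a Spearman rho of -0.30 and a Pearson r of -0.40. This is a description across genes that share the same cells and depth.

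Listed genes also left an empty stretch of ratios. Among the 1500 listed genes of 1 to 10 UMIs per cell, none had a ratio between 0.727 and 0.869. The ratio of the listed UMI totals, 0.786, lies inside that empty stretch. Above it were 1426 genes, among them all 25 members of this abundance, and below it 74. Psmb6, at 0.884, was the member closest to its edge. The count of 36 higher and 4 lower members therefore holds for listed genes only.

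**Figure D3:**
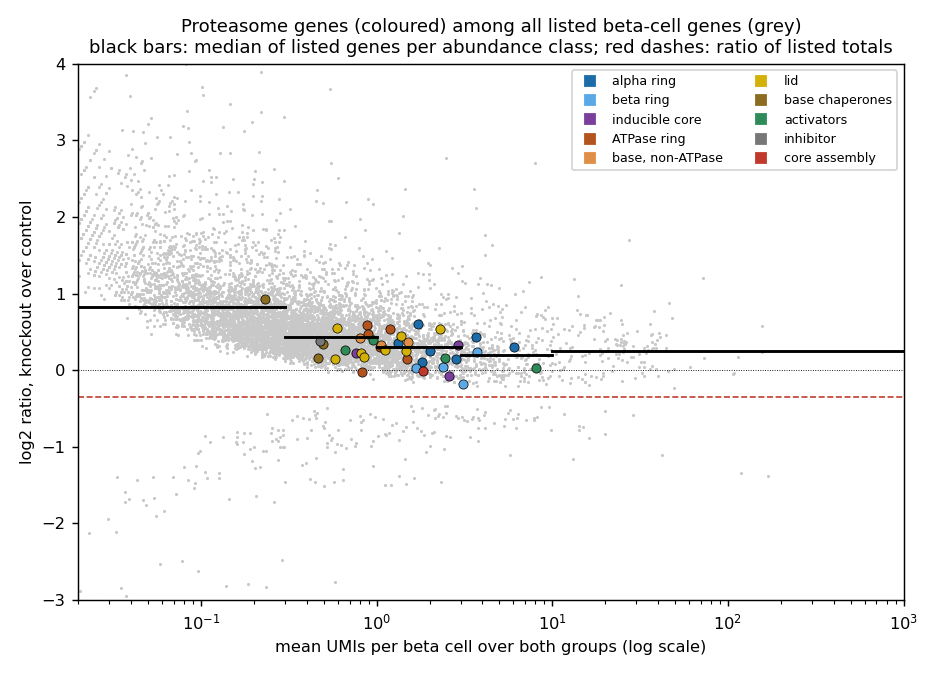
Log2 ratio of knockout over control (vertical) against mean UMIs per beta cell over both groups (horizontal, log scale), with listed genes in grey, the 40 proteasome genes in colour, black bars for the median of listed genes per abundance class and a red dashed line at -0.35, the log2 ratio of the listed totals; 312 listed genes fall outside the axes or have no UMI in a group. All coloured points lie above the empty band around the red line.

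In alpha cells the 3 listed members were lower in both knockout mice. The alpha-cell table has 1 column per mouse, with 142 control cells and 304 and 177 knockout cells, and the knockout columns were not matched to particular mice. Psma2 (chromosome 13, 14613240 to 14674236) had 3.61 UMIs in a control cell and 2.19 and 2.71 in the knockout mice, 2.45 ± 0.368 (SD, n = 2). Psmb2, a structural beta-ring subunit on chromosome 4 (126677630 to 126709714), had 2.25 against 1.42 and 1.61, or 1.52 ± 0.134. Psme2 had 7.80 against 4.91 and 6.25, or 5.58 ± 0.950. For each of the 3, both knockout values lay below the control, and the control lay farther from their mean than the knockout mice did from each other. Ratios of the knockout mean to the control were 0.680, 0.673 and 0.716. Lower in both knockout mice were 51.1% of the 186 listed genes and higher in both 37.1%, so a shared direction of 3 genes is not set apart from that background. None of the 3 was at least 1.5-fold lower in the mean, beside 30.1% of listed genes.

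Partners listed in alpha cells lay on the same side. Pomp had 5.07 UMIs in a control cell and 3.42 and 3.65 in the knockout mice, 3.54 ± 0.162. Ubb had 22.3 against 14.8 and 17.2, or 16.0 ± 1.71. Both were lower in both knockout mice, and no other of the 29 partners was listed. After division by the listed UMI totals, the 3 members stayed below the control in both mice, with ratios from 0.696 to 0.895. Those totals sum only the 186 genes listed in alpha cells, 2534 UMIs in a control cell, and are no measure of depth over all genes. They include Ppy, Ins1, Ins2 and Iapp, which were themselves lower in both knockout mice.

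Without scaling, the direction for Psma2 and Psme2 differed between the cell types. Per cell, Psma2 was at a ratio of 1.11 [1.05 to 1.18] in beta cells and at 0.608 [0.541 to 0.683] and 0.752 [0.663 to 0.854] in alpha cells of the knockout mice. Psme2 was at 1.02 [0.985 to 1.05] in beta cells, an interval that includes 1, and at 0.630 [0.582 to 0.682] and 0.802 [0.737 to 0.873] in alpha cells. With Ins1, Ins2 and Iapp left out of the UMI total by which beta-cell values were divided, the ratios were 0.923 for Psma2 and 0.847 for Psme2, below 1 as in alpha cells. After division by the whole listed UMI total, the beta-cell ratios were 1.41 for Psma2 and 1.30 for Psme2, above 1. Control levels of Psme2 were close, at 7.98 UMIs per beta cell and 7.80 per alpha cell, whereas Psma2 had 2.66 and 3.61. The tables share the control mouse and the knockout mice, and the difference between cell types was not tested. In alpha cells, 3 of 8 beta-cell markers (Ins1, Ins2 and Iapp) summed to 434 UMIs in a control cell and 251 and 304 per knockout cell, and their part in these values was not tested. None of the 6 alpha-cell markers was among the listed genes, so the label was not checked against them. In the same cells Ppy, 1 of 2 PP-cell markers, had 427 UMIs in a control cell and 341 and 323 per knockout cell, and 2 of 5 delta-cell markers summed to 52.5, 19.5 and 51.9. No proteasome gene was listed in delta cells, where 17.7% of listed genes were lower and 71.4% higher in both knockout mice.

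**Figure D4:**
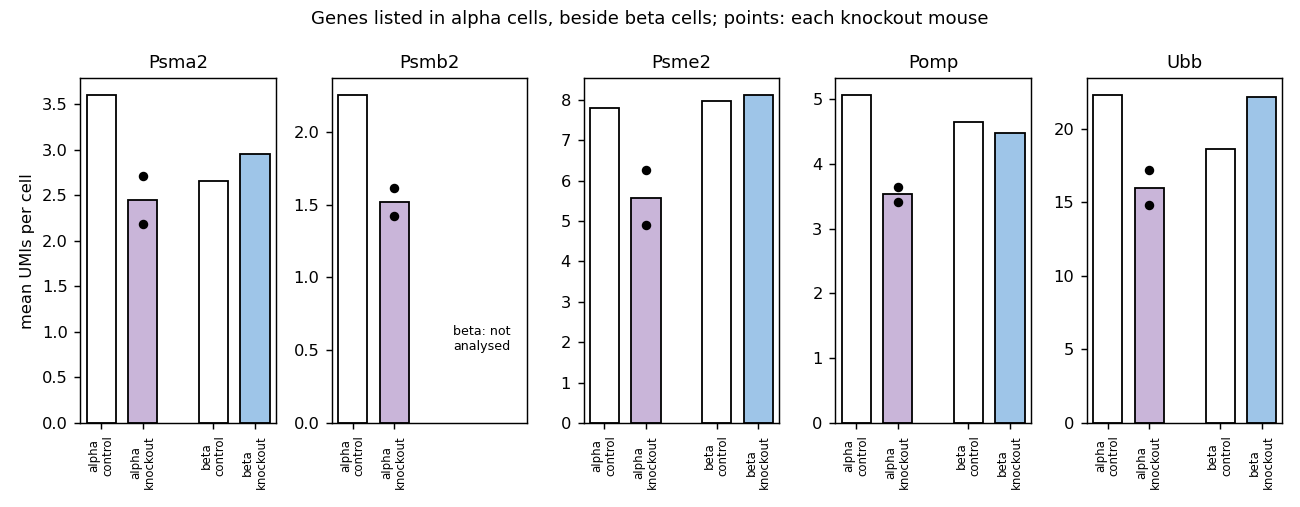
Mean UMIs per cell (vertical, from 0) of the 3 proteasome genes and 2 partners listed in alpha cells, with white bars for the control mouse, purple bars for the mean of the 2 knockout mice (points: each mouse) and, to the right, beta cells of the control (white) and the pooled knockout mice (blue). Both points lie below the white alpha-cell bar for all 5 genes, while the blue bar is above its white neighbour for Psma2, Psme2 and Ubb.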

How the data were processed

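Per the submitters' processing notes, Cell Ranger 3.0.0 and the mouse build mm10 were used; how cells were filtered and typed, how doublets were treated, and which test made the lists, is not given in the sources used here. For each cell type the authors deposited a signal value per gene and column: the average UMIs in a cell, since each value times the column's cell number was whole within 0.001 for 100% of genes. The authors' deposited p-values and q-values served only to describe the lists. From these values ratios and log2 ratios were computed without a pseudocount, with exact Clopper-Pearson intervals (95%, SciPy 1.17.1) whose code was checked on simulated data. No doublet step was possible on these means. With 1 control mouse no test between groups was made, and a fold of 1.5 was used instead. All members could be named; of the 29 partners, 9 names were set by function and the 2 highest and 2 lowest were added. Values of 2 listed genes that these rules or lists take are not reported here. The members and lists were chosen with earlier results of these data known. Gene positions come from GENCODE M21 (mm10) and promoters from RefSeq. In the alpha-cell table the header is shifted by 1 column, as its values show. Scaling, a pseudocount, a filter on low values, another fold and leaving out each knockout mouse were tried as alternatives.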

Additional observations from a re-analysis of the deposited data

Results flagged for a closer look

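Psma2, Psme2 and the partner Ubb had more UMIs per knockout cell in beta cells and fewer in alpha cells of both knockout mice, a difference that was not tested. In beta cells the ratio of knockout over control was 1.11 for Psma2, 1.02 for Psme2 and 1.19 for Ubb. In alpha cells the ratios of the 2 knockout mice were 0.608 and 0.752 for Psma2, 0.630 and 0.802 for Psme2, and 0.663 and 0.771 for Ubb. The interval of Psme2 in beta cells, 0.985 to 1.05, includes 1. After division by the listed UMI total with Ins1, Ins2 and Iapp left out, beta-cell ratios were 0.923 for Psma2, 0.847 for Psme2 and 0.988 for Ubb. These are on the same side as in alpha cells. After division by the whole listed UMI total, the beta-cell ratios were 1.41, 1.30 and 1.51, and those in alpha cells 0.696 to 0.895. The totals are unlike, as that of beta cells sums 8193 listed genes and that of alpha cells only 186.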

How the results depend on the processing

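Beta-cell results depended on scaling more than on any other choice. After division by the listed UMI total, 24 of 40 members were at least 1.5-fold higher, and median log2 ratios were 0.61 for all members, 0.58 for core, 0.68 for regulatory, 0.56 for activator and 0.34 for assembly genes. With Ins1, Ins2 and Iapp left out of the total, 19 members were higher, 1 by at least 1.5-fold, and these medians were -0.0033, -0.034, 0.067, -0.051 and -0.27. Centred on the median of all listed genes, 5 were higher, 0 at least 1.5-fold higher and 2 at least 1.5-fold lower, and the medians were -0.28, -0.31, -0.21, -0.32 and -0.55. A pseudocount of 0.0519 UMIs per cell left 1 member at least 1.5-fold higher, and a fold of 2 left 0. A filter at 0.5 UMIs per cell kept 36 members, 32 of them higher and 2 by at least 1.5-fold. Leaving out Psme2b was chosen after seeing the data and gave 35 of 39 higher. The count of alpha-cell members lower in both knockout mice stayed at 3 after scaling. Leaving out knockout replicate 1 or 2 also gave 3, which was fixed in advance, since all 3 were lower in both. The planned edgeR test on recovered UMIs of alpha and delta cells was not run. No paired analysis was possible because the labels give no replicate numbers that pair the groups. Depth limits Psmd5 most, with 132 and 247 UMIs. Intervals cover counting error only, and no beta-cell value has a check across mice.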

Other observations

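Some members with nearly equal means were listed at small adjusted p-values. In the authors' deposited table Psme2 has an adjusted p of 3.33e-12 in beta cells, at 7.98 and 8.13 UMIs per cell, and Psmg4 one of 7.77e-06, at 1.84 in both groups. Psmb3, Psmb7 and Psmc3 were likewise within 5% of a ratio of 1, and the adjusted p of Psmc3 in the authors' deposited table, 0.00993, is close to the largest listed, 0.00998. After division by the listed UMI total the ratios of Psme2 and Psmg4 were 1.3 and 1.27. Psmb6, the member with the lowest ratio, was at 0.884 before that division and 1.12 after it.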
